A study of Rattus norvegicus with 24 samples.

Results

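The genes described here are grouped as genes of the nerves that run along arteries. Whether their signal in these samples comes from nerve was not tested. Of the 6 genes named (Npy, Th, Dbh, Calca, Dcx and Cplx1), 5 had at least 1 probe with that symbol as its only gene, and Th, the rate-limiting enzyme of catecholamine synthesis, was not analysed here. Calca had 2 probes and each of the others 1, which gave 6 probes of the 10399 in the table, all of them among the 10228 that could be tested. Membership was set by gene symbol alone, but the 6 genes were chosen with earlier results of these data known. Shares of members set beside shares of all probes are therefore descriptions.

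Mesenteric arteries, which supply the gut, were taken from 12 ovariectomised female Sprague Dawley rats aged 5.5 weeks. Ovaries had been removed at 3 weeks of age in every animal, vehicle animals included, and treatment began 2 weeks later. Injections were intraperitoneal and lasted 4 days: estradiol benzoate at 0.15 mg/kg/day (an ester that releases the main estrogen), testosterone at 1 mg/kg/day (the main androgen) or the sesame oil vehicle alone, with 4 rats a group. Each rat's cRNA was read on 2 one-colour CodeLink oligonucleotide arrays, AA and AB, and the replicate is the rat, with both arrays averaged as log2 values. Animals are called by their group and label number, and equal numbers in different groups are different rats.

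Arteries of the gut are supplied by sympathetic nerves, which constrict them, and by sensory nerves, which dilate them. Sympathetic endings release norepinephrine, made by Th and then by Dbh inside the vesicles, together with neuropeptide Y, the product of Npy. Sensory endings release calcitonin gene-related peptide, made from Calca. The cell bodies of both lie in ganglia outside the artery wall, and most messenger RNA of a neuron is held in its cell body. Cplx1 encodes complexin 1, which binds the SNARE complex that fuses vesicles with the membrane, and Dcx encodes doublecortin, a microtubule-binding protein of young neurons.

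The promoters of Dbh, Calca, Cplx1 and Dcx, the 4 genes with an unadjusted p under 0.05 in at least 1 comparison, are shown to place short sequence motifs relative to the gene start. They are the 250 bases before the start on the gene's own strand, from RefSeq on GRCr8, for Dbh at chr3:30886078-30886327 (plus strand), Calca at chr1:178317530-178317779 (minus strand), Cplx1 at chr14:1328823-1329072 (plus strand) and Dcx at chrX:112304162-112304411 (minus strand). Capitals mark TGACG, the core of the cyclic AMP response element, or its reverse complement CGTCA, and TATAAA, each searched on both strands.
Dbh promoter: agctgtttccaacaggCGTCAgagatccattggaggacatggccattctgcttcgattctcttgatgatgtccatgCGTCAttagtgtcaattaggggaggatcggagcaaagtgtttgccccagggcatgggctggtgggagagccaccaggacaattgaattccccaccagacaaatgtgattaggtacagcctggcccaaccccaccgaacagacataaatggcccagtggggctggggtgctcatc
Calca promoter: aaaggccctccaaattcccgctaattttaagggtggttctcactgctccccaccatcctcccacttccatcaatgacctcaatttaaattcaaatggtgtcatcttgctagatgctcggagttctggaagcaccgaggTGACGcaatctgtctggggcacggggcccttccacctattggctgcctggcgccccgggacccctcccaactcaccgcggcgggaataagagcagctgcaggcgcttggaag
Cplx1 promoter: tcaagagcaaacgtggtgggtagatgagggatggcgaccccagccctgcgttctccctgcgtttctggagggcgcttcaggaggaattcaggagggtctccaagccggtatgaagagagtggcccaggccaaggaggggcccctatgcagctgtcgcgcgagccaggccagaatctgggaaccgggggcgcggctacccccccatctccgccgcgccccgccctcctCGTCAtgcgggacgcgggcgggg
Dcx promoter: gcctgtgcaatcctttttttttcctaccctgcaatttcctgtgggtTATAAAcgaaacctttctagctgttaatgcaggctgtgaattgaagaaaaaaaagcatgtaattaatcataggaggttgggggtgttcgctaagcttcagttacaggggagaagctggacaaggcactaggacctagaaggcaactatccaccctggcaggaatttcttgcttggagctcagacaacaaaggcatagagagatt

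Dbh held 2 such core motifs, beginning 234 and 174 bases before the start. Calca held 1 at 112 bases and Cplx1 held 1 at 23 bases, while Dcx and Npy held none. The core was present in 18.2% of 33469 rat promoters of the same length. TATAAA was found in Dcx alone of the 5 measured genes, 204 bases before the start, and in 12.9% of all promoters. The full palindromic estrogen response element was in 0.0239% of promoters and the full androgen response element in 0.012%, and neither was in the window of any of the 5. A match of letters is a description of the sequence and does not show a site in use.

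The arrays had medians between 0.926 and 0.951, and the AA and AB arrays of a rat correlated at 0.976 or more across probes. Of 11 smooth muscle genes 4 had a probe and 2 could be tested, both brighter than the median probe. Of 11 endothelial genes 7 were tested, and 6 were brighter than the median probe. Vehicle animal 5 stood apart by the liver gene Gc (13.5, against 0.217 to 2.12 in the other vehicle animals), and estradiol benzoate animal 3 by the pancreas gene Clps (9.69, against 0.0185 to 0.394 in the others of that group). Member values were therefore also computed without these 2 rats. The label was checked against nerve markers by the brightness of their probes, given as the percentile among all tested probes; brightness depends on the probe and is no measure of transcript abundance. S100b, a Schwann cell protein, was at 86.5, Uchl1, a ubiquitin hydrolase of neurons, at 53.5, Sox10, the glial transcription factor, at 41.3, and Snap25, a SNARE protein of nerve endings, at 2.8. Slc6a2, the norepinephrine transporter, was at 32.4 and Ddc, the next enzyme after Th, at 35.6. The list named for nerve thus had bright and very dim probes. Whether these markers are particular to nerve in whole arteries was not tested. White fat genes were bright too, at a median percentile of 91.4. Tubb3, Chga, Slc18a2 and Pnmt were not analysed here.

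The members' own probes lay near or below the middle of the array. Dcx was at the 54.2 percentile, Npy at 41.9, Dbh at 40.3, Calca at 38.6 and Cplx1 at 25.4. The second Calca probe was at 1.5, with intensities between 0.00561 and 0.0212 in all 12 rats. The brightness plot sets the members beside the other lists.

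**Figure D1:**
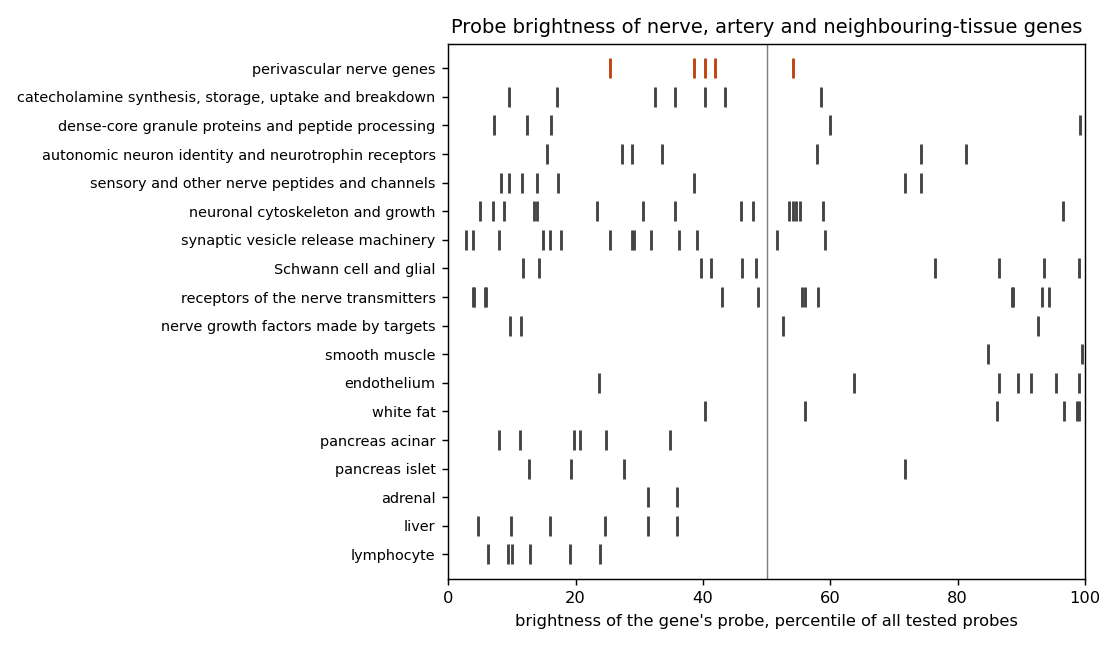
Brightness of each measured gene's probe (x axis, percentile of all tested probes; 1 tick per gene, brightest probe) for the perivascular nerve genes (red) and the other lists (grey, 1 row each); the vertical line is the median probe. Of the 5 nerve genes, Dcx alone lies above the line, at 54.2.

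Duplicate arrays fixed how finely each probe could be read. The SD between duplicates, on the log2 scale, was 0.056 for Dcx, 0.087 for Calca, 0.114 for Npy, 0.138 for Dbh, 0.206 for Cplx1 and 1.01 for the second Calca probe. The share of variance lying between rats of a group (intraclass correlation) was 0.95 for Dcx, 0.91 for Npy, 0.64 for Calca, 0.31 for Dbh and 0.28 for Cplx1. It was 0.00 for the second Calca probe, whose values are given below but carried no repeatable difference between rats. Npy thus varied between rats of a group by more than its duplicates did, with an SD of 0.381, the 83.5 percentile of all probes.

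None of the 6 member probes passed the test in any of the 3 comparisons (limma across all 10228 probes, Benjamini-Hochberg adjusted p under 0.05). Over all probes 0% were called for estradiol benzoate minus vehicle (0 probes, 1376 at an unadjusted p under 0.05), 0.0489% for testosterone minus vehicle (5 probes) and 0.0293% for estradiol benzoate minus testosterone (3 probes). At an unadjusted p under 0.05 stood 2 member probes higher and 1 lower with estradiol benzoate than with vehicle. Among all probes 13.5% were at that p, 6.77% higher and 6.69% lower. With testosterone 2 were higher than vehicle and 0 lower, where 14% of all probes were at that p, 6.62% higher and 7.43% lower. Between the hormones 0 were higher and 1 lower with estradiol benzoate, where 4.13% of all probes were at that p, 2.41% higher and 1.71% lower. Groups did not overlap for 0 member probes in estradiol benzoate minus vehicle (7.82% of all probes), for 1 in testosterone minus vehicle (5.59%) and for 1 in estradiol benzoate minus testosterone (3.05%). The median log2 difference of the 6 probes was 0.17 for estradiol benzoate minus vehicle and 0.23 for testosterone minus vehicle, against -0.01 over all tested probes in both. It was -0.18 for estradiol benzoate minus testosterone, against -0.00 over all. Both hormone comparisons use the same vehicle rats, so their values are not independent. In whole arteries, fewer cells or fibres of a type and less RNA in each cannot be told apart.

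**Figure D2:**
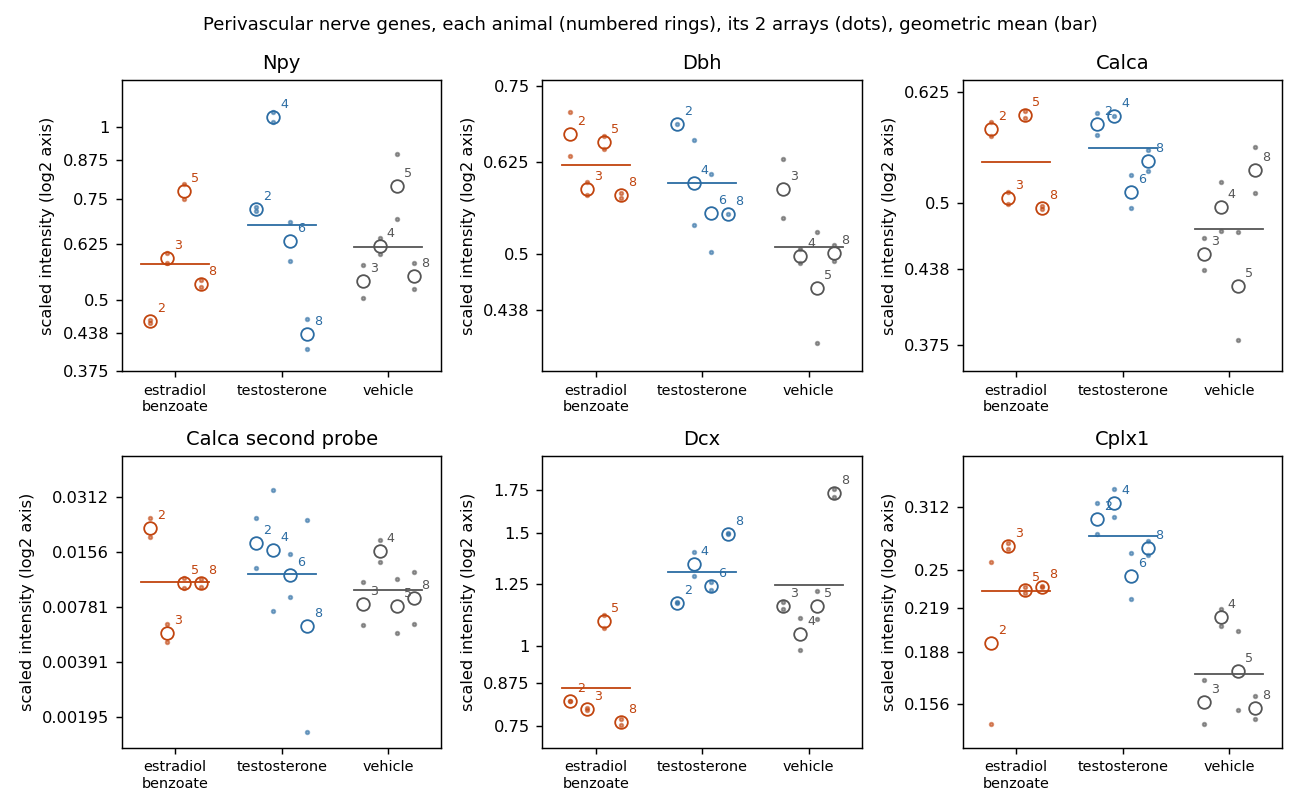
Scaled intensity (y axes, log2 scale) of each member probe in estradiol benzoate, testosterone and vehicle rats; rings are rats with their label numbers (n = 4 a group), dots their 2 arrays, bars geometric means. Testosterone rats lie above all vehicle rats for Cplx1 (0.245 to 0.317 against 0.154 to 0.212), and estradiol benzoate rats below all testosterone rats for Dcx (0.761 to 1.09 against 1.17 to 1.50).

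Npy, the constrictor peptide of sympathetic nerves, differed more between rats of a group than between groups. Intensities were 0.458, 0.591, 0.772 and 0.533 in estradiol benzoate rats 2, 3, 5 and 8. They were 0.720, 1.04, 0.632 and 0.435 in testosterone rats 2, 4, 6 and 8, and 0.538, 0.620, 0.788 and 0.549 in vehicle rats 3, 4, 5 and 8. Both the highest and the lowest of the 12 rats were testosterone rats, and the 3 groups overlapped. The log2 difference was -0.09 (SE 0.25, limma adjusted p = 0.89) for estradiol benzoate minus vehicle, 0.13 (SE 0.25, adjusted p = 0.84) for testosterone minus vehicle and -0.22 (SE 0.25, adjusted p = 0.999) for estradiol benzoate minus testosterone. The 95% intervals, -0.63 to 0.45 for the first and -0.41 to 0.67 for the second, leave room for differences in either direction. Without testosterone rat 4 the second difference was -0.08, and the first was 0.03 without vehicle rat 5 and 0.02 without estradiol benzoate rat 2.

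Dbh, the last enzyme of norepinephrine synthesis, was higher in most hormone-treated rats, without passing the test. It stood at 0.669, 0.585, 0.655 and 0.576 in estradiol benzoate rats, at 0.684, 0.594, 0.553 and 0.551 in testosterone rats and at 0.586, 0.498, 0.461 and 0.501 in vehicle rats, in the animal order above. Vehicle rat 3 was level with the lower hormone-treated rats, and the other vehicle rats lay below all 8 of them. Testosterone rats 2 and 8 rest on 1 array each, since the spot was blank on the other. The log2 difference was 0.28 (SE 0.10, unadjusted p = 0.0188, limma adjusted p = 0.306) for estradiol benzoate minus vehicle, with 4 of 4 treated rats above the vehicle mean. For testosterone minus vehicle it was 0.22 (SE 0.10, adjusted p = 0.37), again with 4 of 4 above that mean. Between the hormones it was 0.06, with a 95% interval of -0.16 to 0.29.

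Calca, the source of the dilator peptide of sensory nerves, had values of 0.581, 0.505, 0.598 and 0.495 in estradiol benzoate rats on its brighter probe. They were 0.586, 0.596, 0.511 and 0.545 in testosterone rats and 0.451, 0.496, 0.423 and 0.534 in vehicle rats. Vehicle rat 8 lay inside the range of both hormone groups and vehicle rat 4 at the low end of the estradiol benzoate range, so that the groups overlapped. The log2 difference from vehicle was 0.19 (SE 0.10, unadjusted p = 0.0813, limma adjusted p = 0.414) with estradiol benzoate and 0.24 (SE 0.10, unadjusted p = 0.0396, adjusted p = 0.343) with testosterone. All 4 rats of each hormone group lay above the vehicle mean, and the hormones differed by -0.04 (95% interval -0.27 to 0.18). The value of testosterone rat 4 rests on 1 array. The dim second probe gave 0.15 (SE 0.42) and 0.29 (SE 0.42) against vehicle, and the 2 probes correlated at r = 0.50 over the 12 rats (rho = 0.455, permutation p = 0.0979 and 0.139; r = 0.418 without the 2 farthest rats). Both probes carry the same reference transcript in the annotation. Calca is spliced to calcitonin or to the nerve peptide, and which form either probe reads is not given in the sources used here.

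Cplx1, the vesicle release protein, had the smallest p of the members. Intensities were 0.193, 0.273, 0.233 and 0.236 in estradiol benzoate rats, 0.300, 0.317, 0.245 and 0.271 in testosterone rats and 0.157, 0.212, 0.175 and 0.154 in vehicle rats. All testosterone rats lay above all vehicle rats, as was so for 2.45% of all probes. Estradiol benzoate rats overlapped both other groups, with rat 2 below vehicle rat 4. Testosterone minus vehicle was 0.70 on the log2 scale (SE 0.14, 1.63-fold, unadjusted p = 2.66e-04), which ranked 23 of 10228 and did not pass the test (limma adjusted p = 0.116, and 0.0517 to 0.323 over the alternatives). Estradiol benzoate minus vehicle was 0.42 (SE 0.14, unadjusted p = 0.00946, adjusted p = 0.267), with 4 of 4 rats above the vehicle mean. Estradiol benzoate minus testosterone was -0.28 (SE 0.14, unadjusted p = 0.0625, adjusted p = 0.999). The probe was designed on an expressed sequence tag, and its 2 arrays differed in estradiol benzoate rat 2 (0.145 and 0.257).

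Dcx, the microtubule protein, was the 1 member with lower values after estradiol benzoate than after either testosterone or vehicle at an unadjusted p under 0.05. It stood at 0.821, 0.797, 1.09 and 0.761 in estradiol benzoate rats, at 1.17, 1.34, 1.24 and 1.50 in testosterone rats and at 1.16, 1.04, 1.16 and 1.73 in vehicle rats. Estradiol benzoate rat 5 was above vehicle rat 4, the single overlap between these groups, while all estradiol benzoate rats lay below all testosterone rats, as was so for 1.17% of probes. The mean log2 level was -0.22 ± 0.24 in estradiol benzoate rats, 0.39 ± 0.15 in testosterone rats and 0.32 ± 0.32 in vehicle rats (SD, n = 4 each). Estradiol benzoate minus vehicle was -0.54 (SE 0.17, unadjusted p = 0.00756, limma adjusted p = 0.247), and estradiol benzoate minus testosterone was -0.60 (SE 0.17, unadjusted p = 0.00366, adjusted p = 0.589). Testosterone minus vehicle was 0.07 (95% interval -0.30 to 0.43), and -0.02 without vehicle rat 4. In a fit to all 24 arrays with the rat as a random block, both estradiol benzoate differences passed (adjusted p = 0.0261 and 0.0269). Over all alternatives those p ran up to 0.522 and 1. That fit gives every probe 1 correlation between duplicates, 0.631, which is below Dcx's own 0.95.

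**Figure D3:**
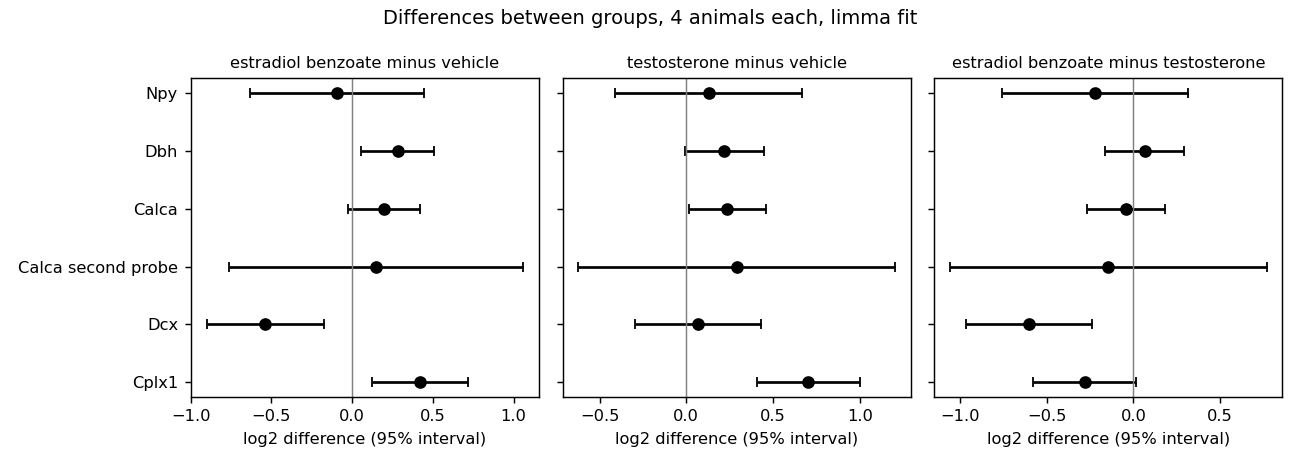
Log2 difference between group means (points) with 95% intervals (bars) from the limma fit for each member probe, in 3 panels for the 3 comparisons, 4 rats a group. The interval of Cplx1 lies above 0 in both comparisons with vehicle, that of Dcx below 0 in both comparisons of estradiol benzoate; intervals are not adjusted for the number of probes.

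Differences from vehicle also varied with the brightness of a probe over the whole array, though not in 1 direction. With the probes cut by mean brightness into 10 equal bins (1 dimmest), Cplx1 lay in bin 3, where the median log2 difference of all probes was 0.075 for estradiol benzoate minus vehicle and 0.10 for testosterone minus vehicle. In bin 4, with Calca, it was 0.058 and 0.07, in bin 5, with Dbh and Npy, 0.021 and 0.037, and in bin 6, with Dcx, -0.015 and -0.005. In bin 10 it was -0.063 and -0.096. The dimmest probes broke this order, with -0.171 and -0.105 in bin 1, which holds the second Calca probe, and 0.076 and 0.086 in bin 2. Dbh, Calca and Cplx1 lay above the median of their bin in both comparisons. The part of brightness in their differences was not tested.

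**Figure D4:**
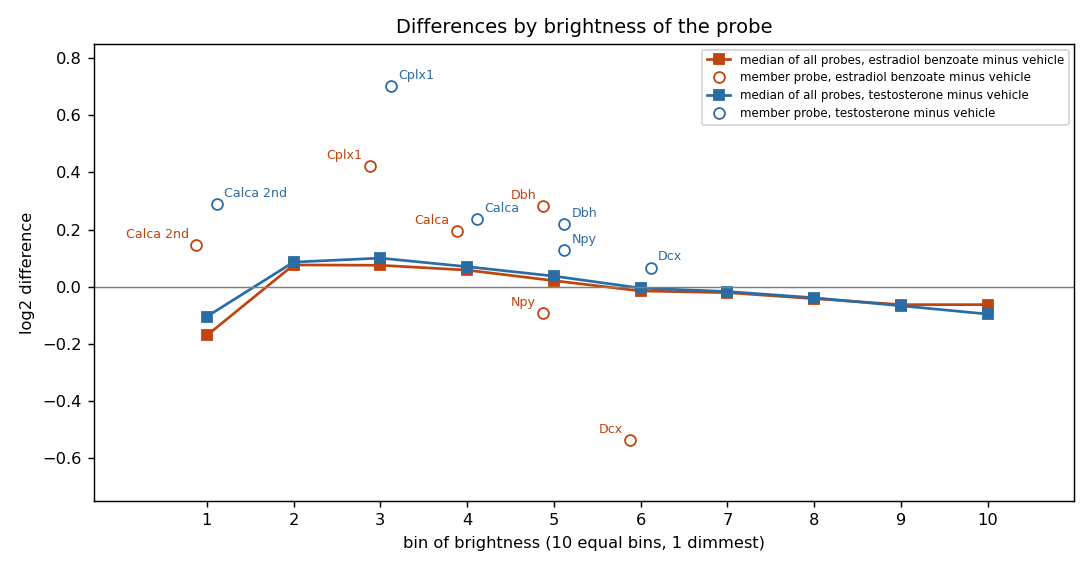
Median log2 difference of all tested probes (squares and lines) by bin of mean brightness (x axis, 10 equal bins, 1 dimmest), for estradiol benzoate minus vehicle (red) and testosterone minus vehicle (blue), with the member probes as rings. Medians are at 0.075 and 0.10 in bin 3 at -0.063 and -0.096 in bin 10 and at -0.171 and -0.105 in bin 1; Cplx1 lies at 0.42 and 0.70.

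Lymphocyte genes were dim and had a higher sum in both hormone groups than in vehicle rats. The summed intensity of the 6 measured genes of 10 was 0.469 to 0.705 in estradiol benzoate rats, 0.475 to 0.678 in testosterone rats and 0.391 to 0.427 in vehicle rats, with no overlap. All 6 probes were below the median probe in brightness. Genes of white fat, from which the arteries were dissected, had median differences from vehicle of 0.34 with estradiol benzoate and 0.29 with testosterone over the 6 tested of 10, 5 of them higher in each and 0 called. Their summed intensity overlapped, at 73.2 to 80.7 in estradiol benzoate rats, 67.3 to 96.4 in testosterone rats and 62.8 to 80.7 in vehicle rats. Agpat2, an enzyme of lipid synthesis, was at 4.80 to 6.04 in estradiol benzoate rats and 5.13 to 6.61 in testosterone rats, above the 3.53 to 4.32 of vehicle rats. Aqp7, a glycerol channel of fat cells, was at 1.25 to 1.45 and 1.197 to 1.49 in the same order, above the 0.732 to 1.19 of vehicle rats, though barely so with testosterone. Among all probes, 7.82% with estradiol benzoate and 5.59% with testosterone did not overlap with vehicle, in either direction. Islet genes, 4 of 7 tested, had medians of 0.25 and 0.26, and liver genes, 6 of 10, had -1.74 and -1.98. The part of these tissues in the members' differences was not tested. Without estradiol benzoate rat 3 and vehicle rat 5, the rats with the highest Clps and Gc, Cplx1 was 0.71 for testosterone minus vehicle. Dcx was then -0.57 for estradiol benzoate minus testosterone. Each of these 2 differences contains only 1 of the 2 rats, while estradiol benzoate minus vehicle contains both. In that comparison Cplx1 was 0.34 without estradiol benzoate rat 3, against 0.42 with all rats. Without vehicle rat 5, Dbh was 0.24 there against 0.28, and Calca 0.14 against 0.19. Calca for testosterone minus vehicle was 0.18 without vehicle rat 5, against 0.24. Signal of these tissues remained in other rats. Gc was at 2.121 and 1.341 in vehicle rats 3 and 4, against at most 0.259 in hormone-treated rats. Pnlip, a pancreas gene, was at 1.665 in estradiol benzoate rat 8 and 0.679 in testosterone rat 6.

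Other genes of the nerve were taken by list, some lists holding a member. Of the catecholamine genes 7 of 12 were measured, Dbh among them, and none passed the test. Their median log2 difference was 0.14 for estradiol benzoate minus vehicle and 0.20 for testosterone minus vehicle, against -0.01 over 6371 genes in both. Gch1, which makes the cofactor of Th, was 1.06 (SE 0.36, adjusted p = 0.284) and 0.87 (SE 0.36, adjusted p = 0.33) in the same order, on a probe at the 9.6 percentile of brightness. Without vehicle rat 5, whose arrays read 0.0026 and 0.0577, Gch1 was 0.70 and 0.51, and estradiol benzoate rat 8 and testosterone rat 4 rest on 1 array each. Slc6a2 was 0.14 (SE 0.10) and 0.20 (SE 0.10), the first 0.09 without vehicle rat 5 or without estradiol benzoate rat 2. Maob, a monoamine oxidase, was 0.36 (SE 0.14) and 0.23 (SE 0.14), the second 0.13 without vehicle rat 3.

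Dense-core granule genes, of which 5 of 10 were measured, had medians of 0.45 and 0.25 against vehicle and 0 calls. Scg5, a chaperone of peptide processing, had all estradiol benzoate rats (0.0919 to 0.121) and all testosterone rats (0.0906 to 0.123) above the vehicle rats (0.0637 to 0.0879). Its log2 differences were 0.45 and 0.39 (SE 0.13 each, adjusted p = 0.232 and 0.277). Of all probes 7.82% and 5.59% did not overlap in these comparisons, in either direction. For Scg5, vehicle rats 4 and 5 and testosterone rat 4 rest on 1 array each. The arrays of testosterone rat 8 read 0.1185 and 0.0693. Among sensory and other nerve peptides and channels, 8 of 12 were measured, with medians of 0.29 and 0.23. Gal, the neuropeptide galanin, gave 0.0584, 0.0633, 0.0732 and 0.0701 in testosterone rats and 0.0464, 0.0428, 0.0408 and 0.0502 in vehicle rats. All testosterone rats lay above all vehicle rats, as was so for 2.45% of all probes. Its difference was 0.56 (SE 0.11, unadjusted p = 2.25e-04, limma adjusted p = 0.109), and 0.34 (SE 0.11, adjusted p = 0.247) for estradiol benzoate minus vehicle. The Gal probe was dim, at 0.0408 to 0.0732 in all rats, where the dimmest bin of probes ended at 0.0429. Penk, the enkephalin precursor, had -0.80 (SE 0.28) and -0.37 (SE 0.28), the second -0.16, -0.57 and -0.20 without vehicle rat 5, vehicle rat 8 and testosterone rat 2.

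The release machinery, 14 of 19 genes with Cplx1 among them, had medians of 0.09 and 0.12 and 0 calls. Snap25, at -0.91 and -1.12 (SE 0.30 each), and Syn2, a synapsin, at 0.00 and -1.29 (SE 0.29 each), are among the dimmest probes of the array (2.8 and 3.9 percentile). In the list of neuronal cytoskeleton and growth, 16 of 23 with Dcx, medians were 0.05 and 0.11. Map1b, a microtubule protein like Dcx, was at 0.481 to 0.653 in testosterone rats and 0.627 to 2.36 in vehicle rats (log2 -1.28, SE 0.37, adjusted p = 0.227). Without vehicle rat 5, the rat with the highest Gc, it was -1.64 and passed (adjusted p = 0.048). Leaving out each other rat gave adjusted p of 0.166 to 0.443. Ncam1, a neural adhesion protein, was at -0.55 and -0.83 (SE 0.24 each), the first -0.37 without vehicle rat 4. Stmn3, a stathmin, was at 0.40 and 0.30 (SE 0.12 each), the second 0.20 without testosterone rat 2.

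Of the autonomic identity genes and neurotrophin receptors 7 of 15 were measured, with medians of 0.11 and 0.18. Ngfr, the low-affinity neurotrophin receptor, was at 0.253 to 0.490 in estradiol benzoate rats and 0.147 to 0.283 in vehicle rats (log2 0.82, SE 0.25, adjusted p = 0.247). Of Schwann cell and glial genes, 10 of 15 were measured, with medians of 0.14 and 0.09. Mbp, a myelin protein, was at 1.02 and 1.03 (SE 0.28 each, adjusted p = 0.196 and 0.21), and Fabp7, a fatty acid binding protein of glia, -0.76 and -0.73 (SE 0.23 each), or -0.49 and -0.46 without vehicle rat 5. With all rats, none of these lists had a gene that passed in any of the 3 comparisons.

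Whether the members vary together was asked over the 12 rats, for the 10 pairs of the 5 genes, with 1 probe a gene. The smallest p was that of Dbh and Calca (Pearson r = 0.703, permutation p = 0.0109, adjusted p = 0.109; Spearman rho = 0.643, permutation p = 0.0276, adjusted p = 0.276). Without the 2 rats farthest from the median of Dbh, r was 0.474, and on deviations from the group means, which take out the treatment, 0.494. No pair passed the adjustment over 10 pairs. Npy and Dbh, both sympathetic, had r = 0.00062 (rho = 0.049, permutation p = 0.998 and 0.887). Dcx and Cplx1 had r = -0.121 (rho = 0.042, permutation p = 0.706 and 0.904).

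A likeness of Npy to Prph, the neuronal filament protein peripherin, was noticed by eye in the rats' values, and Prph lies outside the rule by which genes are named. It was then tested among 400 relations of the members with the genes of the nerve lists, of which none passed the adjustment. Prph was at 7.42, 11.5, 30.1 and 9.29 in estradiol benzoate rats, at 14.8, 24.5, 17.3 and 11.7 in testosterone rats and at 6.67, 10.6, 16.8 and 13.4 in vehicle rats. Estradiol benzoate rat 5, testosterone rat 4 and vehicle rat 5 had the highest value of their group for both genes. Over the 12 rats r was 0.782 and rho 0.783 (permutation p = 0.00268 and 0.00352, adjusted p = 0.224 and 0.297). Without testosterone rats 4 and 8, the farthest from the median of Npy, r was 0.827, and on deviations from group means 0.789. By Pearson r, though not by rho, smaller permutation p were found for Dbh with Stmn3 (r = 0.827), Npy with Ramp2 (r = 0.807) and Cplx1 with Snap25 (r = -0.799), each with an adjusted p of 0.18. On deviations from group means, r was 0.616, 0.88 and -0.468 in this order. Without the 2 rats farthest from the median of the member, r was 0.659, 0.665 and -0.575. Ramp2 was named after its values were seen. By rho, the smallest p was that of Dcx with Adra2a, the alpha-2A adrenergic receptor (rho = -0.825, permutation p = 0.00155, adjusted p = 0.297). On deviations from group means their r was -0.365.

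**Figure D5:**
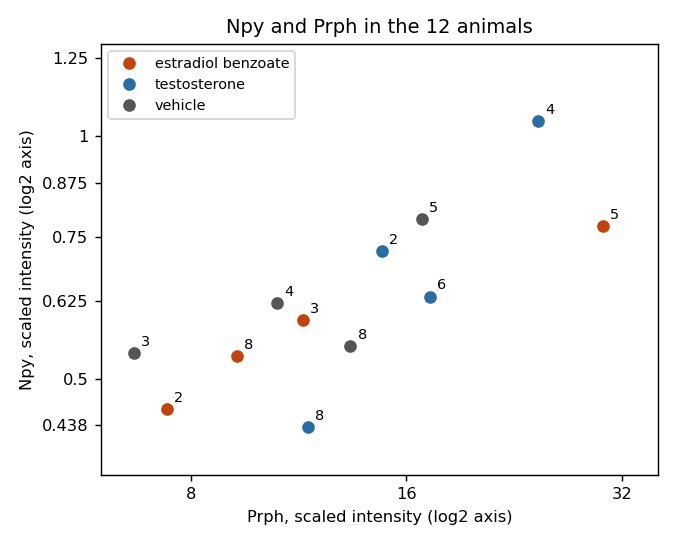
Npy against Prph, scaled intensity of each of the 12 rats (both axes log2 scale), coloured by group and numbered by label. Rats with high Prph tended to have high Npy (r = 0.782), a relation seen by eye before it was tested and not past the adjustment over 400 relations.

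The genes with the most similar pattern over the 12 rats were taken by Pearson r among 7035 single-symbol probes (7034 for Calca) with a value in every rat, and are described without a test. For Npy these were Ggnbp1 (r = 0.906), Rnf7 (0.862) and Plekhf1 (0.856). Dbh was most like Tor3a (0.861), Mmp2 (0.856) and Grpr (0.854), and Calca most like Cldn3 (0.897), Rgr (0.877) and Chst3 (0.866). Dcx was most like Sfrp4 (0.886), Vcan (0.865) and Capn6 (0.856), whose estradiol benzoate minus vehicle differences were -1.23, -0.43 and -0.25. Cplx1 was most like Gabrb2 (0.910), Mc5r (0.909) and Bdkrb1 (0.875), whose testosterone minus vehicle differences were 0.84, 0.82 and 0.43. These 3 probes were at the 11.4, 16.7 and 16.6 percentile of brightness. All values share the same arrays, and the likest of so many probes are high by selection.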

How the data were processed

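The deposited table holds 1 value per probe and array, a linear spot intensity. Array medians lay between 0.926 and 0.951, so the values look scaled to a common median. Per the labels, 1 dye (Alexa 647) was used and AA and AB arrays share cRNA. For scanner software, background correction, scaling and spot flags, nothing is stated in the sources used.

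Blank spots and the 327 values at or below 0 were taken as missing, and log2 was taken without a pseudocount. Arrays of a rat were averaged. The 12 rats were fitted by limma 3.58.1 (R 4.3.3, lmFit and eBayes) with 1 mean per group, for the 10228 probes with values in 3 or more rats of each group. Two-sided p were adjusted by Benjamini-Hochberg over all of them, and the threshold was 0.05. Fit and threshold were tested on simulated data. The differences added there were larger than any of the members', so that test does not show which smaller differences the fit can find. Symbols come from GEO's platform annotation: 7294 probes had 1 symbol, 88 several and 3017 none. Of the first, 7284 matched RefSeq by gene ID, and 0 symbols changed. Correlations used 100000 permutations in scipy 1.17.1. For genes with several probes the brightest stood for the gene in lists and correlations.

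The members, lists and tests were chosen with earlier results of these data known. Named genes were the members, up to 3 genes of each list with the smallest p, the 3 likest genes of each member and fixed defining markers; others are said to be outside that rule. Labels do not pair rats across groups: rats of 1 number in different groups had correlations of deviations between -0.116 and 0.298. The number of rats, 4 a group, limits the precision. Alternatives changed the normalization, the arrays used, the pseudocount, the filter on dim probes, eBayes settings, the groups fitted, the block and the rats kept.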

Additional observations from a re-analysis of the deposited data

Results flagged for a closer look

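Over 63 genes and probes named by the rule or in the text, 11 of 189 groups of 4 rats held 1 rat far from the other 3 (its gap over the group's range above Dixon's critical value). Of the member probes this concerned the dim second Calca probe alone, at 0.0158 in vehicle rat 4, against 0.00877 for the next vehicle rat. Among nerve genes, Stmn2, a stathmin of growing axons, was at 0.808 in testosterone rat 4, against 0.217 for the next testosterone rat. The same rat had the highest Npy of all 12. Phox2a, the autonomic transcription factor, was at 2.93 in estradiol benzoate rat 2 (nearest 2.61), Uchl1 at 0.740 in vehicle rat 8 (nearest 1.08) and Chgb, a granule protein, at 0.0182 in estradiol benzoate rat 5 (nearest 0.0299). Stmn2 and Phox2a lie outside the naming rule and were mentioned after their values were seen.

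Genes of neighbouring tissues made up the rest. The pancreas gene Clps was at 0.153 and Pnlip at 0.679 in testosterone rat 6 (nearest 0.0162 and 0.0352), and Pnlip at 0.332 in vehicle rat 8 (nearest 0.0226). The islet gene Iapp was at 0.0985 in vehicle rat 5 (nearest 0.129), the T cell gene Cd8b at 0.0378 in vehicle rat 5 (nearest 0.0551) and the adrenal gene Cyp21a1 at 0.507 in testosterone rat 2 (nearest 0.440).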

How the results depend on the processing

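No difference of a member passed the test under any alternative except Dcx with all arrays and the rat as a random block. For estradiol benzoate minus vehicle the 0 calls over all probes became 1 with AA arrays alone, 3 without the dimmest 25% of probes, 3 with trend and robust eBayes and 226 with all arrays and a random block. For testosterone minus vehicle the 5 calls became 8 after quantile normalization, 3 with AA arrays, 2 without those dim probes and 1 with the 2 groups alone. They became 151 with all arrays, and 29 without vehicle rat 5 and estradiol benzoate rat 3, an alternative chosen after seeing the data. For estradiol benzoate minus testosterone the 3 calls became 0 after quantile normalization, 1 with AA arrays, 0 with AB arrays, 0 with the 2 groups alone, 40 with all arrays and 0 without those 2 rats. With the label number as a replicate block, although the numbers do not pair the rats, calls were 0 in all 3 comparisons. Leaving out 1 rat at a time gave 0 to 2, 0 to 45 (45 without vehicle rat 5) and 0 to 1 calls, in the order above. Npy reversed to 0.03 with the replicate block and to 0.01 without the 2 rats for estradiol benzoate minus vehicle, and to -0.02 with AB arrays for testosterone minus vehicle; leaving out 1 rat gave -0.23 to 0.03 and -0.08 to 0.34. Calca for estradiol benzoate minus testosterone was 0.01 with AB arrays and -0.09 to 0.00 with 1 rat left out. Dcx for testosterone minus vehicle was -0.02 to 0.22 with 1 rat left out. The second Calca probe was -0.27 (estradiol benzoate minus vehicle), -0.55 (testosterone minus vehicle) and 0.28 (estradiol benzoate minus testosterone) with AA arrays, -0.30 and 0.39 in the last 2 with the replicate block and 0.17 in the last without the 2 rats; leaving out 1 rat gave -0.18 to 0.46, 0.11 to 0.61 and -0.47 to 0.17. The correlation of Npy and Dbh, near 0, was -0.05 after quantile normalization, -0.13 with AB arrays and -0.11 to 0.21 with 1 rat left out. Npy and Calca were at -0.03 with AB arrays and -0.13 to 0.44 with 1 rat left out, and Dcx and Cplx1 at -0.26 to 0.20. On deviations from group means Npy and Dcx were at -0.02, Dbh and Cplx1 at -0.18 and Calca and Cplx1 at -0.02. Dbh and Calca passed the adjustment with AA arrays (r = 0.92, adjusted p = 0.0029), where Dbh lacks testosterone rats 2 and 8, and without vehicle rat 3 (r = 0.81, adjusted p = 0.0243); their r was 0.55 to 0.81 with 1 rat left out, and adjusted p ran from 0.0029 to 0.574 over all alternatives. Dbh could not be fitted with AA arrays alone. The cause of these moves was not tested. Background was not measured in the values used, and the number of rats, 4 a group, limits the precision.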

Other observations

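Receptors for the transmitters of these nerves, 13 of 17 measured, had a median log2 difference of 0.00 for estradiol benzoate minus vehicle and 0.04 for testosterone minus vehicle, against -0.01 over 6371 genes, and 0 calls in any comparison. Adra2a, the alpha-2A adrenergic receptor, which on sympathetic endings restrains norepinephrine release, was at 1.41, 1.67, 1.59 and 1.26 in estradiol benzoate rats and at 1.05, 0.998, 0.984 and 0.966 in testosterone rats, without overlap (log2 0.56, SE 0.14, unadjusted p = 0.00165, limma adjusted p = 0.444). Vehicle rats, at 1.11, 1.13, 1.43 and 0.886, overlapped both. Between the hormones 3.05% of all probes did not overlap, in either direction. Npy5r, a receptor for neuropeptide Y, was at 0.0130 to 0.0168 in estradiol benzoate rats, just below the 0.0169 to 0.0220 of vehicle rats, on a probe at the 5.9 percentile of brightness (log2 -0.43, SE 0.18, adjusted p = 0.335). Estradiol benzoate and vehicle rats did not overlap for 7.82% of all probes, in either direction. Adrb3, the beta-3 adrenergic receptor, was 0.49 (SE 0.18, adjusted p = 0.293) for testosterone minus vehicle, with overlapping groups.

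Factors that targets make for nerve growth and guidance, 4 of 9 measured, had 0 genes at an unadjusted p under 0.05 in any comparison. Ntf3, neurotrophin 3, differed by -0.12 (SE 0.20) for estradiol benzoate minus vehicle and Ntn1, the guidance protein netrin 1, by 0.03 (SE 0.10), and leaving out 1 rat at a time gave -0.23 to 0.01 for Ntf3 and -0.03 to 0.07 for Ntn1. Sema3a, a semaphorin that repels axons, differed by -0.44 (SE 0.45) for testosterone minus vehicle, and by -0.02 without vehicle rat 5, whose arrays read 0.0428 and 0.294.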
